A study of Mus musculus with 63 samples.

Results

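Mouse embryonic fibroblasts (mEFs) that carry 1 functional copy of *Chaserr* were compared with WT mEFs of the same pregnancy. The members were the 3 *Chaserr*+/- and the 3 WT mEF libraries that the labels assign to that pregnancy, which makes 6 of the 63 samples of the series, and every row of their expression tables was used. mEFs are primary cultures, here made from E13.5 embryos after removal of the head, which served for genotyping, and of the liver. They are therefore a mixture of the connective tissue, muscle and skeletal precursors of the trunk and limbs, and not a line. The *Chaserr*+/- embryos carried on 1 chromosome a CRISPR/Cas9 deletion that removes the *Chaserr* promoter together with exon 1. The study made 2 founder lines with such deletions, and the labels do not say which of them gave these embryos. No group was treated, and passage number is not stated. Libraries were made from poly(A) RNA with the strand-specific SENSE mRNA-Seq kit of Lexogen. The rest of the series covered *Chaserr*-/- mEFs with their own WT mEFs, *Chd2* m/m and double mutant mEFs with theirs, embryos, brains, and assays of chromatin and of RNA binding, and the RNA-seq samples enter below only where a value from them bears on the heterozygous cells.

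*Chaserr* is a long noncoding RNA gene that lies next to *Chd2* on mouse chromosome 7 and is transcribed in the same direction, ending shortly before the *Chd2* promoter. *Chd2* encodes a chromatin remodelling enzyme of the chromodomain helicase family, a protein that uses ATP to move nucleosomes and that associates with transcribed genes. The comparison asks which genes respond in cultured cells when 1 of the 2 copies of *Chaserr* is lost. In mEF cultures, myoblasts can fuse to myotubes and skeletal precursors can enter the osteoblast programme, in which SP7 acts after RUNX2 and matrix proteins and alkaline phosphatase follow.

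The 4 guide RNAs that direct Cas9 to both sides of the deleted segment are shown because they define the mutant allele. Each target was found once on chromosome 7 of the mouse genome (mm9). The 20 bases of the guide are in lower case, and the capitals mark the 3 bases of the adjacent PAM, which Cas9 needs for cleavage.
sgRNA 1: cggtccgagccagcggggagAGG
sgRNA 2: gaggtgggaacccatctttgGGG
sgRNA 3: agtgaaactctgggtttgcgGGG
sgRNA 4: tgctgagaacatggaagcggTGG
The target of sgRNA 1 lies at chr7:80702699-80702718 on the minus strand and that of sgRNA 2 at chr7:80702568-80702587 on the same strand. That of sgRNA 3 lies at chr7:80703696-80703715 on the plus strand, and that of sgRNA 4 at chr7:80703600-80703619 on the minus strand. The segment between the outermost cuts, taken at 3 bases from the PAM, spans 1142 bp. The nearest target is 15936 bases upstream of the annotated 5′ end of *Chd2*, which occupies chr7:80571577-80686632 on the minus strand in GENCODE vM1. *Chaserr* was not matched to a gene of that annotation, and therefore no exon or intron is given for the targets.

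Total counts lay between 11814184 and 14178022 in the WT libraries and between 11615325 and 14113765 in the *Chaserr*+/- libraries. The biological coefficient of variation was 0.103. On the first principal component of the 6 libraries, which held 32.1% of the variance, *Chaserr*+/- replicate 1 lay at 32.01, apart from the other 5 libraries, which lay between -16.29 and 5.32. Counts of calls and the medians of the main gene lists are given with and without it. Replicate 2 of both groups had *Xist* at 0.03 (WT) and 0.01 (*Chaserr*+/-) TPM (transcript abundance scaled for length and depth) and *Ddx3y* at 9.59 and 12.2 TPM, whereas the other 4 libraries had *Xist* between 205 and 274 TPM and *Ddx3y* at 0, so that both groups held the same mixture. The fibroblast list, 15 genes for matrix and mesenchymal proteins, had a summed level of 11900 to 14100 TPM in WT and of 12700 to 13600 TPM in *Chaserr*+/- mEFs, and no member was called. Nothing in the labels says that the replicates were separate embryos, and p values measure only the spread between these cultures.

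The targeted gene was lower in every *Chaserr*+/- library. *Chaserr* stood at 9.11, 9.13 and 8.04 CPM (read counts scaled to a common library size) in the WT libraries 1 to 3 and at 4.49, 6.66 and 4.92 CPM in the *Chaserr*+/- libraries 1 to 3. The groups did not overlap, and the log2 fold change was -0.70 ± 0.17 (SE), but at this low level it did not pass the adjustment over all genes (adjusted p = 0.192, edgeR). In *Chaserr*-/- mEFs the RNA was listed at 0 TPM in all 3 libraries. *Chd2* was called higher. It stood at 35.6, 36.3 and 38.2 CPM in WT and at 54.5, 50.3 and 56.6 CPM in *Chaserr*+/- mEFs, a log2 fold change of 0.55 ± 0.0878 (SE, adjusted p = 0.0369), or 1.47-fold. Every *Chaserr*+/- library was above every WT library. The rise was smaller than that in *Chaserr*-/- mEFs, where the log2 fold change was 1.45, and the difference of both changes, 0.90 ± 0.152 (SE), passed its own test (adjusted p = 0.0302, edgeR interaction). The other 8 members of the chromodomain helicase family that were tested were not called.

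Among the 6 genes that neighbour *Chd2*, none was called, although the groups of some did not overlap. *St8sia2*, which encodes a sialyltransferase that adds polysialic acid to NCAM, had 19.9, 19.8 and 17.6 CPM in WT and 26.7, 31.0 and 24.2 CPM in *Chaserr*+/- mEFs (log2 fold change 0.52 ± 0.116, adjusted p = 0.154). For *Slco3a1*, an organic anion transporter gene, the log2 fold change was 0.33 ± 0.0808 (adjusted p = 0.192). The groups of both genes were separate, with the *Chaserr*+/- libraries above, as they were for 7.65% of all tested rows. *Fam174b*, a membrane protein gene, was separate in the other direction, with 11.7, 11.5 and 13.4 CPM in WT and 10.9, 9.5 and 9.57 CPM in *Chaserr*+/- mEFs (-0.29 ± 0.126, adjusted p = 0.577), as were 6.85% of all tested rows. *Rgma*, *Mctp2* and *Nr2f2* overlapped between the groups. In *Chaserr*-/- mEFs the log2 fold changes of *St8sia2* and *Slco3a1* were -0.36 and -0.16, and neither passed its test.

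Of 13282 tested rows, 17 were called higher and 6 lower in the heterozygous cells (adjusted p under 0.05), which is 0.128% and 0.0452% of them. At an unadjusted p under 0.05, 697 (5.25%) were higher and 414 (3.12%) lower. Every *Chaserr*+/- library lay above every WT library for 1016 rows (7.65%) and below for 910 (6.85%). The 17 higher rows included 4 genes of bone-forming cells (*Alpl*, *Ibsp*, *Sp7*, *Panx3*) and 4 of striated muscle (*Ttn*, *Tnnc1*, *Myl1*, *Myl4*), with the immediate early gene *Egr1*, *Chd2*, *Serpina3h*, *Adamts5*, *Ackr3*, *Npr3*, *Luzp2*, *Entpd3* and a second row of *Eno1b*. The 6 lower rows were *Eno1b*, *Gm6756*, *Gstm2*, *Fbxo17*, *Pop4* and the row of gene ID 100861531, for which the tables gave no symbol. These numbers moved with single libraries. Without *Chaserr*+/- replicate 1 there were 42 higher and 12 lower calls, and all 23 rows were kept. Without *Chaserr*+/- replicate 2 there were 11 and 2, with 11 of the 23 kept, and without replicate 3 there were 19 and 4, with 16 kept. Without WT replicate 1, 2 or 3 there were 5, 2 and 2 higher and 3, 2 and 1 lower calls, with 6, 3 and 3 rows kept. *Serpina3h* and the 2 rows of *Eno1b* were kept each time, *Alpl* in 4 of the 6 fits and *Chd2* only without *Chaserr*+/- replicate 1. In the study's own method, DESeq2, 67 rows were higher and 15 lower, and all 23 were among them.

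**Figure D1:**
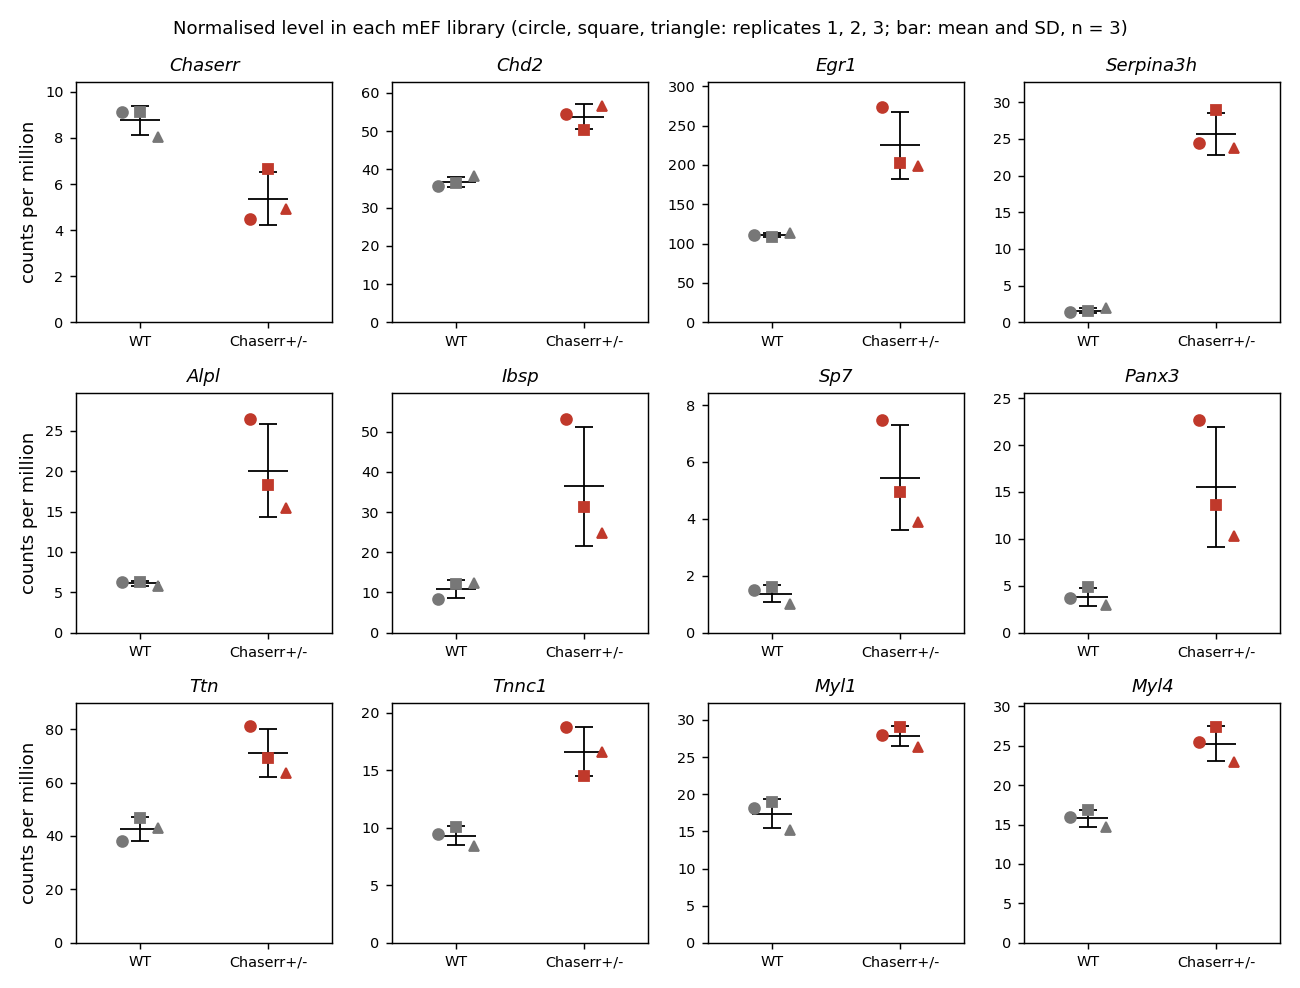
Normalised level (CPM, linear axes from 0) of 12 genes in each of the 3 WT and 3 *Chaserr*+/- mEF libraries, with the mean and SD of each group. *Chaserr* is lower and the other 11 genes are higher in every *Chaserr*+/- library, and for *Alpl*, *Ibsp*, *Sp7* and *Panx3* the highest point is *Chaserr*+/- replicate 1.

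Genes of osteoblasts, the cells that lay down and mineralise bone matrix, were among the called genes. Of 12 tested genes of the osteoblast list, 3 were called higher (*Sp7*, *Alpl* and *Ibsp*) against 0.128% of all rows, and none lower. The median log2 fold change of the list was 0.89, and that of all tested rows was 0.00. At an unadjusted p under 0.05, 10 members were higher, against 5.25% of all rows. The gene lists here and below were chosen with earlier results of these data known. Their shares beside those of all rows are therefore descriptions and not tests. *Sp7*, the transcription factor that commits precursors to the osteoblast fate, had 1.49, 1.59 and 1.02 CPM in WT and 7.49, 4.96 and 3.88 CPM in *Chaserr*+/- mEFs. Its log2 fold change was 1.99 ± 0.295 (adjusted p = 0.0264), and the lowest *Chaserr*+/- library was above the highest WT library. *Alpl*, which encodes the alkaline phosphatase that frees phosphate for mineral, had 6.26, 6.28 and 5.75 CPM in WT and 26.5, 18.3 and 15.4 CPM in *Chaserr*+/- mEFs. This was a change of 1.72 ± 0.193 on the log2 scale (adjusted p = 0.00653). *Ibsp*, the gene of bone sialoprotein, had 8.4, 12.1 and 12.4 CPM in WT and 53.1, 31.3 and 24.8 CPM in *Chaserr*+/- mEFs, a change of 1.74 ± 0.256 (adjusted p = 0.0264). All 3 genes stood highest in *Chaserr*+/- replicate 1, but the groups did not overlap for any of them.

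*Panx3*, a channel protein gene expressed by osteoblasts and hypertrophic chondrocytes, was not on the list but was called with them. It had 3.70, 4.86 and 2.92 CPM in WT and 22.7, 13.6 and 10.3 CPM in *Chaserr*+/- mEFs (log2 fold change 2.03 ± 0.286, adjusted p = 0.0211). In bulk libraries such as these, more cells of a type and more RNA of its genes per cell cannot be told apart. Other osteoblast genes did not pass. *Ifitm5*, a membrane protein gene of mineralising osteoblasts, had 1.21, 0.67 and 0.709 CPM in WT and 4.99, 1.91 and 2.07 CPM in *Chaserr*+/- mEFs (adjusted p = 0.192). The matrix protease gene *Mmp13* overlapped between the groups (log2 fold change 0.53, adjusted p = 0.462). *Spp1*, the osteopontin gene, which many cell types express, had a log2 fold change on the other side of 0 (-0.17, adjusted p = 0.739). In CPM every *Chaserr*+/- library lay below every WT library for *Spp1*, as for 6.85% of all tested rows. It supplied most of the summed level of the list, which was 1220 to 1350 TPM in WT and 1070 to 1330 TPM in *Chaserr*+/- mEFs. Without *Spp1* the sum was 84.7 to 110 TPM in WT and 152 to 207 TPM in *Chaserr*+/- mEFs, with no overlap. *Spp1* was left out after the values were seen. Without *Chaserr*+/- replicate 1 the median of the list was 0.80 and 4 genes were called. Leaving out *Chaserr*+/- replicate 2 gave 0.85 and 2. Without WT replicate 1, 2 or 3 the medians were 1.03, 1.18 and 1.35 over 15 tested genes, and 1, 0 and 0 genes were called. The filter let in more genes there than the 12 of the main fit, so these medians are not of the same genes. Over the 10 genes that reached 10 counts in each library the median was 0.73, and 3 were called.

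Cartilage genes had a median above 0 and no call. Of 17 tested genes of the chondrocyte list, 9 were higher and none lower at an unadjusted p under 0.05, and the median was 0.44. Of all tested rows, 5.25% were higher and 3.12% lower at that threshold. *Comp*, a cartilage matrix protein gene, had 1.78, 1.84 and 1.42 CPM in WT and 3.71, 3.83 and 3.79 CPM in *Chaserr*+/- mEFs (log2 fold change 1.16 ± 0.215, adjusted p = 0.0704). *Hapln1*, whose product links hyaluronan to aggrecan, stood at 0.71 ± 0.132 (adjusted p = 0.0723), and *Col11a1*, a fibrillar collagen gene, at 0.51 ± 0.104 (adjusted p = 0.114). In all 3 the groups were separate, with the *Chaserr*+/- libraries above, as they were for 7.65% of all tested rows. *Cnmd*, the chondromodulin gene, had 0.498 to 1.51 CPM in WT and 1.85 to 3.71 CPM in *Chaserr*+/- mEFs (1.57, adjusted p = 0.258). The value was 0.34 for the major cartilage collagen gene *Col2a1* (adjusted p = 0.482). DESeq2 called 2 genes of the list, and edgeR called 2 without *Chaserr*+/- replicate 1. The median was 0.41 without *Chaserr*+/- replicate 1, 0.66 without WT replicate 2, 0.29 without WT replicate 3 and 0.22 over the 12 genes that reached 10 counts in each library. The summed level of the list was 308 to 364 TPM in WT and 406 to 452 TPM in *Chaserr*+/- mEFs. Among all 38 tested collagen genes, 11 were higher and none lower at an unadjusted p under 0.05, with a median of 0.18, and the smallest adjusted p was that of *Col19a1* (log2 fold change 0.79 ± 0.143, adjusted p = 0.0623). When *Chaserr*+/- replicate 1 was left out, 2 collagen genes were called, and the median was 0.22. It was 0.28 without WT replicate 2 and 0.11 without *Chaserr*+/- replicate 3. Tendon genes had a median of -0.14 over 5 tested genes and *Thbs4*, a thrombospondin gene, at -0.53 (adjusted p = 0.494). The fit without *Chaserr*+/- replicate 1 called 1 tendon gene higher.

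Skeletal muscle genes were higher as a broad group of moderate changes. Of 29 tested genes of the sarcomere list (contractile proteins and the excitation apparatus of muscle fibres), 4 were called higher and none lower, and 24 were higher at an unadjusted p under 0.05 against 5.25% of all rows. All 29 log2 fold changes were above 0, their median was 0.69, and in 24 genes every *Chaserr*+/- library lay above every WT library, against 7.65% of all rows. These genes mark the same cell type in the same 6 cultures and cannot be counted as independent of each other. *Ttn*, the giant spring protein of the sarcomere, had 38.0, 46.8 and 42.9 CPM in WT and 81.0, 69.0 and 63.5 CPM in *Chaserr*+/- mEFs (log2 fold change 0.75 ± 0.112, adjusted p = 0.0291). *Tnnc1*, the troponin subunit that binds calcium in slow and cardiac muscle, had 9.46, 10.1 and 8.43 CPM in WT and 18.8, 14.5 and 16.6 CPM in *Chaserr*+/- mEFs (0.83 ± 0.135, adjusted p = 0.0369). The myosin light chain genes *Myl1* and *Myl4* were called with them. *Myl1* had 18.1, 18.9 and 15.2 CPM in WT and 28.0, 29.1 and 26.4 CPM in *Chaserr*+/- mEFs (0.67 ± 0.109, adjusted p = 0.0369). *Myl4*, the embryonic isoform, had 15.9, 16.8 and 14.7 CPM in WT and 25.5, 27.4 and 22.9 CPM in *Chaserr*+/- mEFs (0.68 ± 0.109, adjusted p = 0.0369). None of these 4 genes overlapped between the groups, and only for *Ttn* and *Tnnc1* was *Chaserr*+/- replicate 1 the highest.

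Just outside the threshold stood *Mylpf*, the regulatory light chain of fast muscle, with 30, 27.1 and 26.7 CPM in WT and 45.6, 41.3 and 38.7 CPM in *Chaserr*+/- mEFs (0.58 ± 0.0993, adjusted p = 0.0545). Cardiac actin, *Actc1*, which is also the actin of embryonic muscle, stood at 0.80 ± 0.17 (adjusted p = 0.13) and skeletal actin, *Acta1*, at 0.95 ± 0.205 (adjusted p = 0.141). For *Acta1* the libraries had 53, 46.9 and 42.9 CPM in WT and 132, 74.2 and 69.8 CPM in *Chaserr*+/- mEFs, so that *Chaserr*+/- replicate 1 carried much of the mean. The regulators of the lineage gave no call. Of 7 tested, 4 were higher at an unadjusted p under 0.05, against 5.25% of all rows, and the median was 0.65. This median was 0.35 without *Chaserr*+/- replicate 1. The log2 fold change was 0.91 ± 0.271 for *Myod1*, the factor that sets the myoblast fate (adjusted p = 0.309), 0.65 ± 0.202 for *Myog*, which starts differentiation (adjusted p = 0.341) and 0.93 ± 0.297 for *Mymk*, which myoblasts need to fuse (adjusted p = 0.359). Each was highest in *Chaserr*+/- replicate 1, with *Myod1* at 10.6 CPM there, at 5.46 and 5.17 CPM in the other two and at 3.34 to 4.11 CPM in WT. The summed level of the sarcomere list was 542, 603 and 521 TPM in WT and 1080, 860 and 790 TPM in *Chaserr*+/- mEFs. Without *Chaserr*+/- replicate 1 the median was 0.56, 20 of 28 genes were higher at an unadjusted p under 0.05 and 8 were called. Of all 13302 rows of that fit, 923 were higher and 42 were called higher. Leaving out *Chaserr*+/- replicate 2 left 1 gene of the list called. Without WT replicate 1, 2 or 3, no gene of the list was called and the median stayed between 0.65 and 0.72. Contractile genes of smooth muscle and myofibroblasts had a median of 0.03 over 13 tested genes and no call, and *Cnn1*, a calponin gene of smooth muscle, stood at -0.41 (adjusted p = 0.482).

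**Figure D2:**
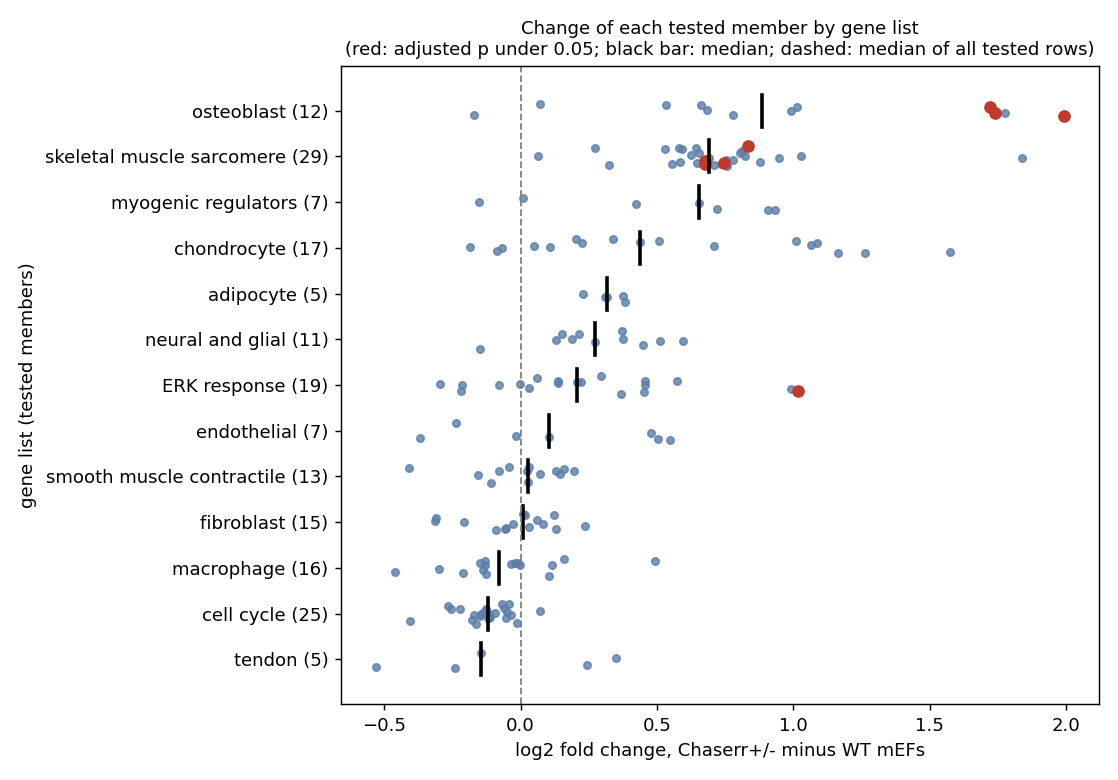
Log2 fold change (*Chaserr*+/- minus WT mEFs) of every tested member of 13 gene lists, with genes called at an adjusted p under 0.05 in red, the median of each list as a black bar and the median of all tested rows as a dashed line. The medians of the osteoblast (0.89), sarcomere (0.69), myogenic (0.65) and chondrocyte (0.44) lists lie to the right, and those of the smooth muscle (0.03) and fibroblast (0.01) lists at the dashed line.

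The promoters of the muscle genes were read for a sequence shared by the group. The E-box CAGCTG, a form that MYOD1 and MYOG bind, was searched on both strands in the 250 bases before the start of each gene (RefSeq, GRCm38.p6). It occurred in 13 of 26 sarcomere genes with a promoter in the table, or 50%, in 3 of 10 osteoblast genes, or 30%, and in 12.8% of 27025 promoters of all genes. The less specific form CANNTG, which includes it, occurred in 84.6% of the sarcomere promoters and in 66% of all. Of the 4 called genes, *Myl1* held CAGCTG, and *Myl4*, *Tnnc1* and *Ttn* did not within this window. The form CANNTG occurred 2 times in *Tnnc1*, 1 time in *Ttn* and 0 times in *Myl4*. *Myl1* and *Chrna1*, the subunit of the muscle acetylcholine receptor, are shown as examples with 1 and 2 occurrences in capitals.
Myl1 (chr1:66945057-66945306, minus strand): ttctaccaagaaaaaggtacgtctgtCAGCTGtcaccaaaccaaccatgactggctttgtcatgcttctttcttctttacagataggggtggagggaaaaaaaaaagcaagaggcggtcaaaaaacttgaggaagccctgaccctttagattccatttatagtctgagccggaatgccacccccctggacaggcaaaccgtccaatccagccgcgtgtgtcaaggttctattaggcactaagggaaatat
Chrna1 (chr2:73580339-73580588, minus strand): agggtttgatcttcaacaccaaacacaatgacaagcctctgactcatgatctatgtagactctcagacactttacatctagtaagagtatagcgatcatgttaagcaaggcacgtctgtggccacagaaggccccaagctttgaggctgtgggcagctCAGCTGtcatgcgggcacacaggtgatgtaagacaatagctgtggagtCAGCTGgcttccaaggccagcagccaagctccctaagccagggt
A match describes the sequence and does not show that a factor was bound there in these cells.

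In *Chaserr*-/- mEFs, which lack both copies, muscle genes lay on the other side of 0. The effect in *Chaserr*-/- mEFs, relative to 3 WT mEF libraries of their own pregnancy, was set against the effect in *Chaserr*+/- mEFs in 1 fit of 12 libraries, and the WT libraries of the 2 comparisons were different ones. Of 14028 tested rows, 22 (0.157%) differed at an adjusted p under 0.05. In 21 of them the *Chaserr*-/- effect was below the *Chaserr*+/- effect, and *Chd2* was the exception. That imbalance depended on the fit, with 162 above and 154 below when each library had to hold 10 counts or more, 855 and 797 in DESeq2, and 1541 and 1127 without *Chaserr*-/- replicate 2. *Chaserr* itself differed as well (-8.17). In addition, 6 genes of the sarcomere list were among the 22: *Acta1*, *Mybph*, *Actn2*, *Tnni1*, *Chrna1* and *Myl4*. For *Acta1* the log2 fold change was 0.95 in *Chaserr*+/- and of -1.15 in *Chaserr*-/- mEFs, a difference of -2.10 ± 0.291 (SE, adjusted p = 0.00927). The values were 0.76 and -1.12 for *Mybph*, a thick filament protein gene, 0.75 and -0.79 for *Actn2*, the actinin of the Z disc, and 0.65 and -0.88 for *Tnni1*, slow troponin I. For *Chrna1* they were 0.62 and -0.79 and for *Myl4* 0.68 and -0.21. Some further muscle genes are on no list and are named after their values were seen. *Cacna1s*, the calcium channel of muscle excitation, had 0.99 in *Chaserr*+/- and -0.86 in *Chaserr*-/- mEFs, *Atp2a1*, the calcium pump of fast fibres, 0.92 and -0.88, and *Ablim3*, an actin-binding protein gene, 0.93 and -0.63. All 29 sarcomere genes had a log2 fold change above 0 in *Chaserr*+/- and below 0 in *Chaserr*-/- mEFs, with medians of 0.69 and -0.52. The count of 22 rested on the libraries used. It was 2668 without *Chaserr*-/- replicate 2 and 215 without replicate 1, 13 without *Chaserr*+/- replicate 1, 10 and 6 without WT replicates 1 and 3 of the heterozygous pregnancy, and 9 without WT replicate 4, which belongs to the *Chaserr*-/- pregnancy. In whole E13.5 *Chaserr*+/- embryos the median of the sarcomere list was -0.05, and in *Chaserr*-/- *Chd2* m/m mEFs it was 0.54.

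Among the bone genes no difference passed the threshold. *Alpl* stood at -0.57 and *Sp7* at -0.36 in *Chaserr*-/- mEFs, with differences from the *Chaserr*+/- effect of -2.29 and -2.35 (adjusted p = 0.0623 and 0.0652). *Ibsp* stood at 0.13 and *Panx3* at 0.49, with differences at adjusted p values of 0.108 and 0.132. The median of the osteoblast list was 0.06 in *Chaserr*-/- mEFs, 0.01 in E13.5 *Chaserr*+/- embryos and -0.17 in double mutant mEFs. That of the chondrocyte list was -0.45, -0.02 and 0.27.

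**Figure D3:**
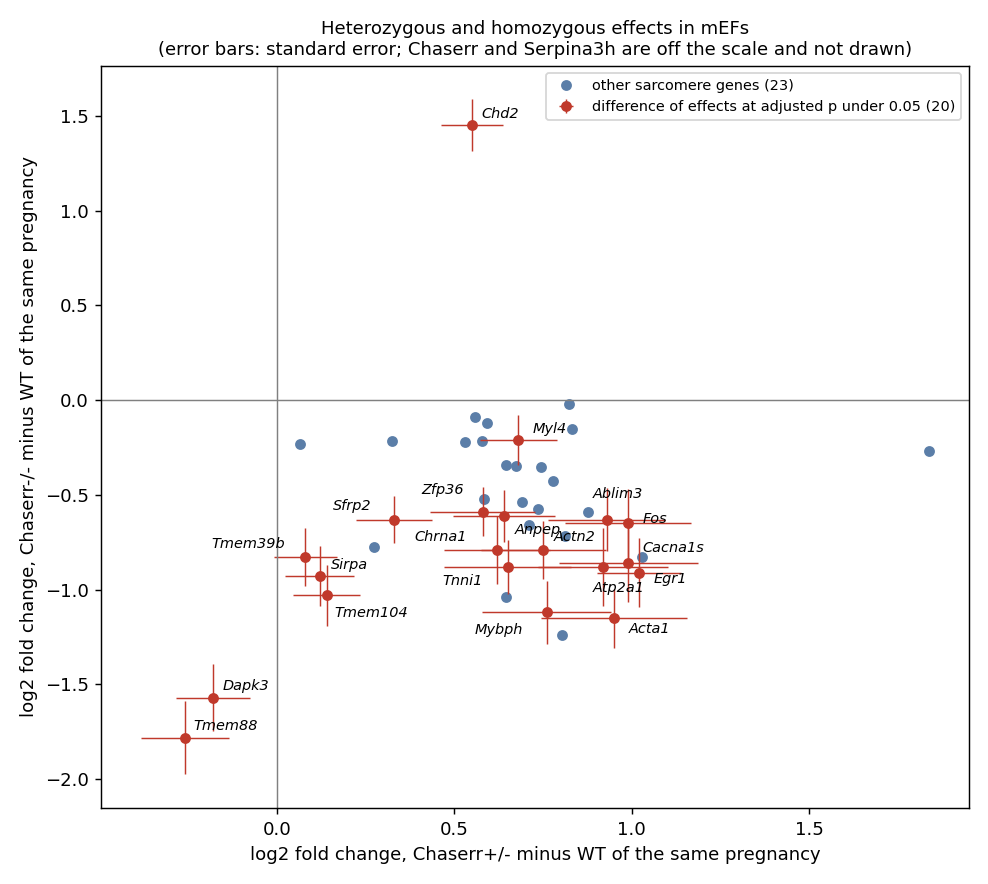
Log2 fold change in *Chaserr*+/- mEFs (x axis) against that in *Chaserr*-/- mEFs (y axis), each relative to the WT mEFs of its own pregnancy, for 20 genes whose effects differed at an adjusted p under 0.05 (red, with standard errors) and for 23 other sarcomere genes (blue). The sarcomere genes lie to the right of 0 and below 0, *Acta1* at 0.95 and -1.15, whereas *Chd2* lies above 0 on both axes at 0.55 and 1.45.

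The level of muscle and bone genes also varied between WT cultures. The summed level of the sarcomere list was 521 to 603 TPM in the WT mEFs of the heterozygous pregnancy, 1540 to 2490 TPM in those of the *Chaserr*-/- pregnancy, 956 to 1150 TPM in those of the double mutant cross and 744 to 1220 TPM in those of the *Chd2* cross. The *Chaserr*+/- mEFs, at 790 to 1080 TPM, were above their own WT mEFs and below those of the *Chaserr*-/- pregnancy. *Alpl* stood at 4.09 to 4.75 TPM in their own WT mEFs and at 11.5 to 19.4 TPM in *Chaserr*+/- mEFs, while the WT mEFs of the *Chaserr*-/- pregnancy had 22.6 to 32.0 TPM. Osteoblast genes without *Spp1* summed to 163 to 222 TPM in these WT mEFs, next to the 152 to 207 TPM of the *Chaserr*+/- mEFs. With *Spp1* the sums were 442 to 520 TPM in these WT mEFs and 1070 to 1330 TPM in the *Chaserr*+/- mEFs. For the chondrocyte list the order differed from that of the sarcomere list, with 406 to 452 TPM in *Chaserr*+/- mEFs, 308 to 364 TPM in their own WT mEFs and 143 to 197 TPM in the WT mEFs of the *Chaserr*-/- pregnancy. When the latter were added to the WT group, the median of the sarcomere list was -0.40, that of the osteoblast list 0.32, and no row was called in either direction (1619 rows at an unadjusted p under 0.05, edgeR). The part of the culture in the differences between *Chaserr*+/- and WT mEFs was not tested.

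**Figure D4:**
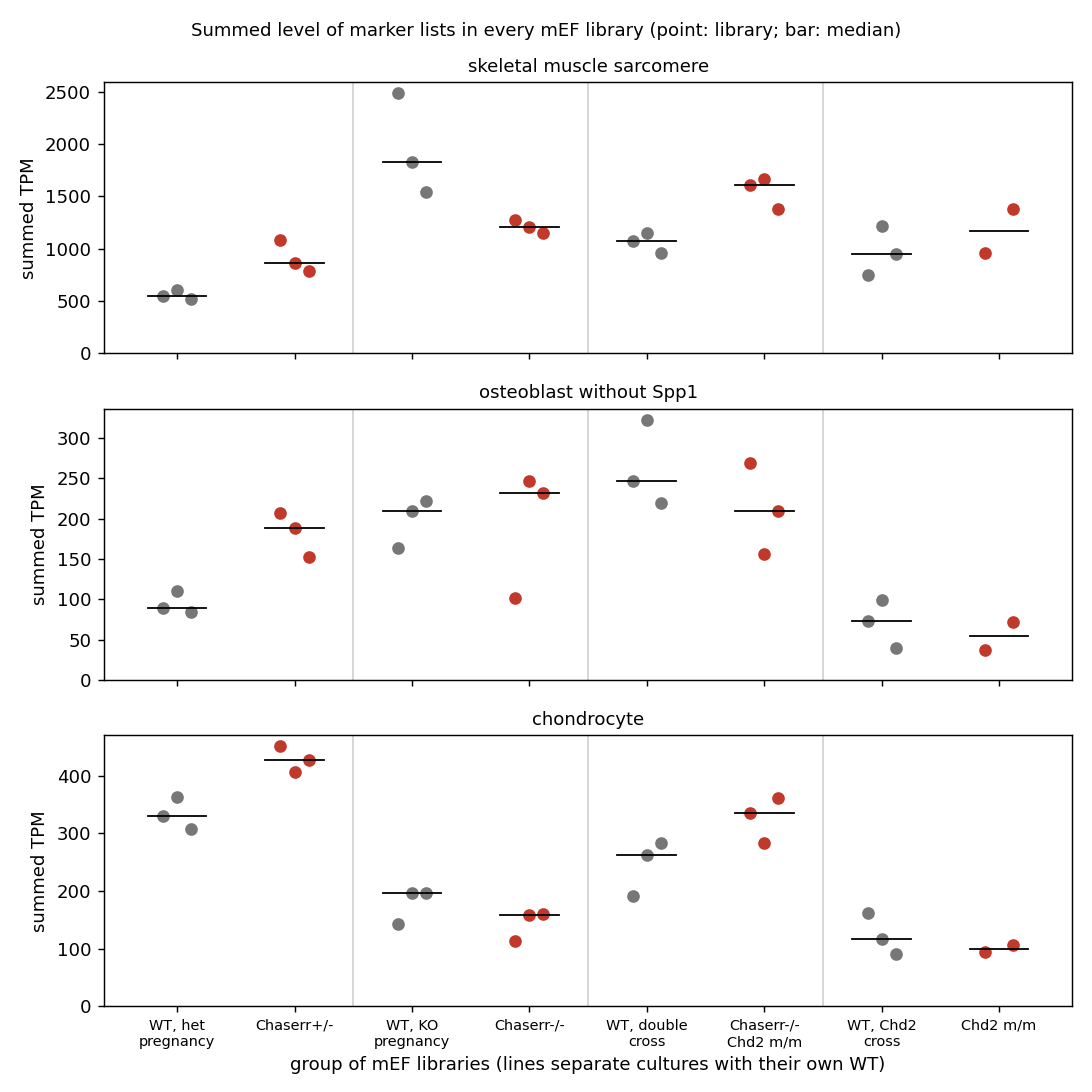
Summed TPM of the sarcomere list, the osteoblast list without *Spp1* and the chondrocyte list in each mEF library of 8 groups, with mutants in red, WT in grey and a bar at the median. In the 2 leftmost groups the *Chaserr*+/- libraries lie above their WT libraries in all 3 panels, and for the sarcomere list the 3 WT libraries of the *Chaserr*-/- pregnancy, at 1540 to 2490 TPM, lie above every *Chaserr*+/- library. With *Spp1*, which is not drawn, the osteoblast sums of the 2 leftmost groups overlap.

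Genes of the immediate early and ERK response, which growth factors switch on through the MAP kinase cascade, were shifted in part. Of 19 tested genes, *Egr1* was called and 9 were higher and none lower at an unadjusted p under 0.05, with a median of 0.21, against 5.25% and 3.12% of all rows. The median was 0.09 without *Chaserr*+/- replicate 1, with 8 higher and 2 lower at an unadjusted p under 0.05 and 2 called. Of all 13302 rows of that fit, 923 were higher, 856 lower and 42 called higher. Without WT replicate 1, 2 or 3, none of the 19 genes was called. *Egr1*, a zinc finger factor, had 111, 109 and 114 CPM in WT and 274, 202 and 199 CPM in *Chaserr*+/- mEFs, a log2 fold change of 1.02 ± 0.118 (adjusted p = 0.00728). The WT libraries lay within a few CPM of each other, and the lowest *Chaserr*+/- library was far above them. *Fos*, a subunit of the AP-1 factor, had 9.32, 9.55 and 10.8 CPM in WT and 25.7, 17.1 and 16.0 CPM in *Chaserr*+/- mEFs (0.99 ± 0.177, adjusted p = 0.0623). The log2 fold change was 0.46 ± 0.0918 for *Spry2*, a feedback inhibitor of receptor tyrosine kinases (adjusted p = 0.0963), 0.45 for *Phlda1* and 0.37 for *Ier3*, and none of the 3 passed. In *Chaserr*-/- mEFs *Egr1* stood at -0.91 and *Fos* at -0.65, and the differences of -1.92 for *Egr1* (adjusted p = 0.00422) and -1.64 for *Fos* (adjusted p = 0.0302) passed their test. *Zfp36*, whose product degrades mRNAs of the same response, did so too, with 0.58 and -0.59 (adjusted p = 0.0329). These genes also differed between WT cultures, with *Egr1* at 64.4 to 66.8 TPM in the WT mEFs of the heterozygous pregnancy and 525 to 536 TPM in those of the *Chaserr*-/- pregnancy, and *Fos* at 8.06 to 9.37 and 162 to 200 TPM.

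Signals that act on skeletal precursors gave no call. In the BMP and GDF list, 6 of 19 tested genes were higher and 1 lower at an unadjusted p under 0.05, 11 were above 0, and the median was 0.13. Of all tested rows, 5.25% were higher and 3.12% lower at that threshold. *Nog*, the gene of the BMP antagonist noggin, had 3.49, 4.11 and 3.86 CPM in WT and 7.49, 7.37 and 5.09 CPM in *Chaserr*+/- mEFs (0.81 ± 0.193, adjusted p = 0.187). The log2 fold change was 0.61 for *Id4*, a target of BMP signals (adjusted p = 0.192), 0.57 for the ligand gene *Gdf6* (adjusted p = 0.26) and 0.34 for the ligand gene *Bmp4* (adjusted p = 0.241). Among 15 tested Wnt targets and inhibitors, the secreted inhibitors *Wif1* (0.78, adjusted p = 0.192), *Sfrp2* (0.33, adjusted p = 0.384) and *Dkk1* (1.05, adjusted p = 0.483) had positive changes, and the median was 0.11. For *Sfrp2* the effect differed from that in *Chaserr*-/- mEFs (-0.63, adjusted p of the difference 0.0351). *Jag1*, a Notch ligand gene, stood at 0.35 ± 0.0858 (adjusted p = 0.192). Medians of the Notch, Hedgehog and TGF-beta lists were 0.19, 0.10 and 0.11.

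*Serpina3h* and *Eno1b* had the largest changes of all called genes, and both belong to families of near copies. *Serpina3h*, one of a cluster of antitrypsin-like protease inhibitor genes on chromosome 12, is the called member of the acute phase list. In this list 4 of 16 tested genes were higher at an unadjusted p under 0.05, against 5.25% of all rows. *Serpina3h* is described first. It had 1.35, 1.51 and 1.97 CPM in WT and 24.4, 28.9 and 23.7 CPM in *Chaserr*+/- mEFs (log2 fold change 3.99 ± 0.169, adjusted p = 4.07e-07). A split at 10 TPM, chosen after the values were seen, left its level in 2 ranges in the 23 mEF libraries, 1.19 to 2.07 TPM in 13 libraries and 16.3 to 35 TPM in 10. The 10 comprised all *Chaserr*+/- and *Chaserr*-/- mEFs, but also all 3 WT mEFs of the *Chaserr*-/- pregnancy and 1 of 3 double mutant libraries, so that the ranges did not follow the genotype. Of its close relatives, *Serpina3g* and *Serpina3n* overlapped between the groups (0.12 and -0.07), and *Serpina3i*, at no more than 1.35 CPM, stood at 1.76 (adjusted p = 0.387). Reads shared between members of this family may be divided among them by the counting, and the value of *Serpina3h* is uncertain in that respect.

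The 2 rows of *Eno1b*, an intronless relative of the glycolytic enzyme gene *Eno1*, went in opposite directions. One row had 494, 451 and 438 CPM in WT and 15.3, 9.43 and 9.49 CPM in *Chaserr*+/- mEFs (log2 fold change -5.33 ± 0.167, adjusted p = 2.89e-08). The other had 0 counts in all WT libraries and 307, 207 and 187 CPM in *Chaserr*+/- mEFs. Summed, they had 494, 451 and 438 CPM in WT and 323, 216 and 197 CPM in *Chaserr*+/- mEFs, a log2 fold change of -0.91 ± 0.155 that did not pass (adjusted p = 0.0533). *Eno1* itself overlapped, with 1340 to 1430 CPM in WT and 1300 to 1810 CPM in *Chaserr*+/- mEFs. As the sequences are near copies, the division of reads among them is uncertain, and across all 23 mEF libraries the second row was at 0 in 8 and at 36.6 to 665 TPM in 15, WT and mutant libraries in both sets.

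The remaining calls were of single rows, and those with a described gene had diverse functions. *Adamts5*, which encodes a protease that cleaves aggrecan, had 173, 162 and 164 CPM in WT and 282, 304 and 229 CPM in *Chaserr*+/- mEFs (0.71 ± 0.103, adjusted p = 0.0262). *Ackr3*, a scavenger receptor for the chemokine CXCL12, had 122, 132 and 117 CPM in WT and 198, 205 and 180 CPM in *Chaserr*+/- mEFs (0.65 ± 0.0832, adjusted p = 0.0139). *Npr3*, the clearance receptor for natriuretic peptides, had 28.8, 27.4 and 29.9 CPM in WT and 41.1, 44.0 and 47.8 CPM in *Chaserr*+/- mEFs (0.62 ± 0.0946, adjusted p = 0.0294). In these 3 genes, which WT mEFs expressed well, *Chaserr*+/- replicate 1 was not the highest. *Entpd3*, an ectonucleotidase gene, had 1.21, 1.26 and 0.63 CPM in WT and 8.27, 3.40 and 5.09 CPM in *Chaserr*+/- mEFs (2.43 ± 0.374, adjusted p = 0.0318). *Gstm2*, a glutathione transferase gene, had 48.0, 43.7 and 42.1 CPM in WT and 28.0, 27.9 and 28.7 CPM in *Chaserr*+/- mEFs (-0.66 ± 0.0913, adjusted p = 0.0197). The predicted gene *Gm6756* had 3.84 to 5.12 CPM in WT and 0.425 to 1.07 CPM in *Chaserr*+/- mEFs (-2.45 ± 0.306, adjusted p = 0.0125). The row of gene ID 100861531, whose symbol and function were not known here, had 10900 to 13300 CPM in WT and 5310 to 7190 CPM in *Chaserr*+/- mEFs (-0.99 ± 0.135, adjusted p = 0.0197).

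Of the 23 called rows, 4 were on chromosome 7, which carries *Chaserr* and holds 7.26% of the tested rows, and another 4 on chromosome 18, which holds 2.58%. The rows on chromosome 18 include both rows of *Eno1b*, so they stand for fewer than 4 genes. Besides *Chd2*, the rows on chromosome 7 were *Luzp2*, *Fbxo17* and *Pop4*. *Luzp2*, a leucine zipper protein gene at chr7:62091329-62520736, had 1.35, 1.34 and 1.02 CPM in WT and 3.78, 4.25 and 3.79 CPM in *Chaserr*+/- mEFs (1.66 ± 0.23, adjusted p = 0.0197), and in *Chaserr*-/- mEFs its log2 fold change was 1.75 (adjusted p = 0.0522). *Fbxo17*, an F-box protein gene at chr7:29501823-29523163, had 17.5, 16.2 and 17.7 CPM in WT and 11.0, 10.4 and 8.62 CPM in *Chaserr*+/- mEFs (-0.77 ± 0.124, adjusted p = 0.0369). *Pop4*, a subunit gene of RNase P at chr7:39047839-39056367, had 64.4, 54.5 and 56.9 CPM in WT and 41.6, 36.7 and 33.5 CPM in *Chaserr*+/- mEFs (-0.65 ± 0.105, adjusted p = 0.0369). In *Chaserr*-/- mEFs the log2 fold changes of *Fbxo17* and *Pop4* were -0.56 and 0.01. At an unadjusted p under 0.05 there were 100 rows of chromosome 7, or 10.4% of those tested there, against 8.36% of all rows and 11.1% of those on chromosome 3. The part of the strain background in these calls, or in those of *Serpina3h* and *Eno1b*, was not tested.

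Of 13 genes that the study discusses, a list chosen partly on libraries of this series, *Chd2* was the only one called in *Chaserr*+/- mEFs. *Ctsk*, the cysteine protease cathepsin K, had 31.9, 40.2 and 32.0 CPM in WT and 12.4, 24.5 and 21.8 CPM in *Chaserr*+/- mEFs (-0.83 ± 0.202, adjusted p = 0.192), and its log2 fold change in *Chaserr*-/- mEFs was -0.93 (adjusted p = 0.0522). *Dapk3*, a kinase gene, stood at -0.18 (adjusted p = 0.688) against -1.57 in *Chaserr*-/- mEFs, and the difference passed its test (adjusted p = 0.0148). *Sumf2*, a relative of the sulfatase-modifying factor gene, stood at 0.44 against -1.64, a difference that did not pass (adjusted p of the difference 0.0623).

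The *Hox* genes, which pattern the body axis and the limbs, gave no call. Of 35 tested, 23 were above 0, 2 were higher and 4 lower at an unadjusted p under 0.05, and the median was 0.07. Of all tested rows, 5.25% were higher and 3.12% lower at that threshold. The 4 lower genes were *Hoxd12* (-0.95, adjusted p = 0.192), *Hoxa13* (-0.86, adjusted p = 0.244), *Hoxd13* (-0.67, adjusted p = 0.215) and *Hoxd11* (-0.37, adjusted p = 0.429). *Hoxd13* had 15.9, 19.4 and 18.6 CPM in WT and 8.20, 11.8 and 13.9 CPM in *Chaserr*+/- mEFs, and the groups did not overlap in any of the 4. Every *Chaserr*+/- library lay below every WT library for 6.85% of all tested rows. Cell cycle genes had a median of -0.12, and 1 of 25 was above 0, against 6688 of all 13282 tested rows. At an unadjusted p under 0.05, 4 were lower and none higher. In 7 of the 25 every *Chaserr*+/- library lay below every WT library. None was called, and DESeq2 called 1 lower. Without *Chaserr*+/- replicate 1 or 3, 6 were lower at an unadjusted p under 0.05, against 856 of 13302 and 524 of 13480 rows. The list held the cyclin gene *Ccnb2* (-0.41 ± 0.0847, adjusted p = 0.119) and the mitotic kinase gene *Aurkb* (-0.25, adjusted p = 0.451). Of 18 p53 targets, 6 were higher at an unadjusted p under 0.05, among them the death receptor gene *Fas* (0.56), *Perp* (0.54), *Gdf15* (0.66) and *Mdm2* (0.30), with a median of 0.15 and no call. Imprinted genes had a median of 0.21 over 17 genes, and *Peg10*, a gene derived from a retrotransposon, stood at 0.36 (adjusted p = 0.294).

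Markers of other cell types that could enter the culture gave no call. The macrophage list had a median of -0.08 over 16 tested genes and a summed level of 320 to 430 TPM in WT and 242 to 515 TPM in *Chaserr*+/- mEFs. Its median was -0.38, with 7 genes lower at an unadjusted p under 0.05, without *Chaserr*+/- replicate 2, and 0.09, with 3 higher, without replicate 3. Of all rows, 397 of 13320 were lower in the first of these fits and 829 of 13480 higher in the second. Endothelial genes summed to 24.4 to 30.7 TPM in WT and 28.1 to 34.0 TPM in *Chaserr*+/- mEFs, with *Kdr*, a receptor of VEGF, at a log2 fold change of 0.50 (adjusted p = 0.323). Neural and glial genes summed to 40.6 to 48.6 and 48.3 to 49.9 TPM and erythroid genes to 6.56 to 11.3 and 5.12 to 14.5 TPM. Cytosolic ribosomal protein genes had a median of -0.07 over 79 tested genes, and *Rpl36* the smallest p value (-0.27, adjusted p = 0.389). Adipocyte, epithelial and hepatocyte genes had medians of 0.32, 0.14 and 0.26 over 5, 7 and 4 tested genes, and erythroid genes of 0.85 over 2. Of the 12 erythroid rows, some of which join several genes, and the 10 adipocyte genes, 3 and 4 were listed at 0 TPM in all 6 libraries. Medians were -0.05 for splicing factors of the SR family, -0.02 for nuclear genes of oxidative phosphorylation, 0.02 for glycolysis and hypoxia, 0.02 for cholesterol synthesis, 0.09 for interferon-stimulated genes and -0.01 for the stress response.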

How the data were processed

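The 6 libraries were 3 *Chaserr*+/- and 3 WT mEF cultures of 1 pregnancy, and the replicate numbers are those of the labels. The authors mapped the paired reads to RefSeq transcripts with an edited last exon of *Chaserr* and quantified them with RSEM. The deposited tables hold RSEM expected counts, which were rounded to whole numbers, and TPM values made by the authors, which were used only for levels. Effective lengths in the deposited tables served for 1 alternative. RSEM divides reads that fit several transcripts, which makes near copies uncertain. Genes were filtered with filterByExpr, scaled by TMM and tested with edgeR 4.0.16 (quasi-likelihood, Benjamini-Hochberg adjustment over all 13282 tested rows, adjusted p under 0.05) in R 4.3.3. All SE values are of the log2 fold change. The *Chaserr*-/- effect minus the *Chaserr*+/- effect was tested in 1 edgeR fit of 12 mEF libraries. DESeq2 1.42.0, other scalings and filters, the replicate block and leaving out each library were alternatives. The 1113 extra rows of a transcript and the 28 rows with no symbol stayed in the fit. The fits were also tested on simulated data with 200 changed genes. At a log2 change of 1 the main fit recovered 85% of them with 16 false calls, and at 0.585 it recovered 55% with 10. The test of the difference of effects recovered 50.5% at a log2 change of 1, with 6 false calls. mm9 positions came from GENCODE vM1. Called rows, up to 4 genes of smallest p and 2 of highest level in each list, near copies of called genes, *Chd2* neighbours and genes that the study discusses are named by rule. Other muscle and response genes whose effect differed from that in *Chaserr*-/- mEFs were chosen after their values were seen. The comparison, the members and the gene lists were chosen with earlier results of these data known. Total counts of 11615325 to 14178022 per library limit the genes near 1 CPM.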

Additional observations from a re-analysis of the deposited data

Results flagged for a closer look

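For 22 genes the log2 fold change in *Chaserr*-/- mEFs differed from that in *Chaserr*+/- mEFs by a test of the difference itself (edgeR, adjusted p under 0.05). The differences below are the *Chaserr*-/- effect minus the *Chaserr*+/- effect on the log2 scale. Among muscle genes they were -2.10 for *Acta1*, -1.87 for *Mybph*, -1.85 for *Cacna1s*, -1.80 for *Atp2a1*, -1.56 for *Ablim3*, -1.54 for *Actn2*, -1.53 for *Tnni1*, -1.41 for *Chrna1* and -0.88 for *Myl4*. For genes of the immediate early response they were -1.92 for *Egr1*, -1.64 for *Fos* and -1.18 for *Zfp36*. At the locus itself they were -8.17 for *Chaserr* and 0.90 for *Chd2*. *Serpina3h* differed by -3.53. The others were -1.52 for *Tmem88*, -1.39 for *Dapk3*, -1.25 for *Anpep*, -1.17 for *Tmem104*, -1.04 for *Sirpa*, -0.96 for *Sfrp2* and -0.91 for *Tmem39b*. *Anpep*, a surface aminopeptidase gene, stood at 0.64 in *Chaserr*+/- and -0.61 in *Chaserr*-/- mEFs, whereas *Tmem88* stood at -0.26 and -1.78. The WT libraries of both pregnancies differed in the level of the muscle and immediate early genes, and the part of this in the differences was not tested.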

How the results depend on the processing

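The 17 higher and 6 lower calls became 54 and 14 with no filter on low counts, 67 and 15 with DESeq2, and 1 and 1 with the spread taken from 12 mEF libraries. When the WT group was extended by the controls of the *Chaserr*-/- mEFs, they were 0 and 0 (1619 rows at an unadjusted p under 0.05, edgeR). Leaving out 1 library gave 2 to 42 higher and 1 to 12 lower calls. Same-numbered libraries deviated with r = 0.0193, 0.185 and -0.119, and libraries of different number with r between -0.174 and 0.168. The numbers are not taken as pairs. The highest r was that of replicate 2, which differed from the other libraries of both groups in *Xist* and *Ddx3y*. Sex was not a covariate. With the replicate block there were 60 higher and 14 lower calls. For the difference of effects, 22 rows became 316 with at least 10 counts in every library and 1652 with DESeq2, and 6 to 2668 without 1 library. With the same extended WT group, 30 of 91 named log2 fold changes changed sign. Of called genes these were *Alpl* (-0.14), *Egr1* (-1.16), *Myl4* (-0.22), *Myl1* (-0.11) and *Ttn* (-0.40). Of other bone and cartilage genes they were *Ifitm5* (-0.54), *Spp1* (0.52) and *Cnmd* (-1.34). Of other muscle genes they were *Actc1* (-0.89), *Mylpf* (-0.51), *Myod1* (-1.01), *Myog* (-1.28), *Mymk* (-0.77), *Acta1* (-0.24), *Actn2* (-0.31), *Tnni1* (-0.51), *Mybph* (-0.86), *Chrna1* (-0.30), *Cacna1s* (-0.01), *Atp2a1* (-0.26) and *Ablim3* (-0.07). The rest were *Fos* (-2.44), *Zfp36* (-0.76), *Wif1* (-0.71), *Sfrp2* (-0.87), *St8sia2* (-0.41), *Serpina3g* (-0.48), *Tmem88* (0.26), *Sirpa* (-0.17) and *Tmem39b* (-0.10). Among the fits that left out 1 library, *Serpina3g* ranged from -0.04 (without *Chaserr*+/- replicate 2) to 0.27, *Serpina3n* from -0.39 to 0.21 (without WT replicate 2, and 0.03 with WT replicate 1 left out) and *Eno1* from -0.02 (without *Chaserr*+/- replicate 1) to 0.22. The cause of these changes was not tested. DESeq2 size factors, upper quartile scaling, no filter, DESeq2 and the replicate block kept all 23 called rows. Removal of a trend with transcript length kept 20 and ended the calls of *Chd2* (adjusted p = 0.051), *Tnnc1* (adjusted p = 0.0516) and *Ttn* (adjusted p = 0.0796).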
